A study of Sus scrofa with 23 samples.

Results

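The genes described here are the nuclear-encoded subunits of the mitochondrial respiratory chain and of ATP synthase, as measured in Longissimus, a long back muscle, of pigs. They were taken by name: every probe that was no control spot and whose gene name was a subunit of complexes I to IV, cytochrome c or ATP synthase, without assembly factors. The rule gave 131 of the 43603 probes on the array, for 28 of the 4063 genes named there. Of these genes 6 are listed under complex I, 3 under complex II, 2 under complex III, 8 under complex IV and 8 under ATP synthase, and cytochrome c is 1 gene. The annotation in the scanner files names only part of the pig genes, so other subunits are not analysed here; 17 further probes, for NDUFV2, NDUFB6 and ATP5O, carry a subunit's name only through their RefSeq accession and are given separately.

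The chain passes electrons from NADH (complex I) and from succinate (complex II) to ubiquinone, then through complex III and cytochrome c to complex IV, which reduces oxygen. Complexes I, III and IV pump protons across the inner mitochondrial membrane, and ATP synthase uses the return of these protons to make ATP. In muscle, oxidative fibres hold more of this machinery than glycolytic fibres, and the nuclear genome encodes most of its subunits.

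Residual feed intake (RFI) is what an animal eats beyond the amount predicted from its growth and maintenance. The pigs came from a low-RFI line (RFIneg, 7 pigs) and a high-RFI line (RFIpl, 8 pigs), both fed ad libitum, and from 8 further high-RFI pigs whose feed was held at the level eaten by the low line (RFIplR). All were sampled at 115 kg body weight, with 1 array for each pig; sex, age and sire are not analysed here. RFIneg against RFIplR compares the lines at a like feeding level, and RFIplR against RFIpl compares feeding levels within the high line. Both comparisons with RFIpl use the same RFIpl pigs, and both comparisons with RFIneg the same RFIneg pigs.

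Total RNA was labelled with Cy3 and hybridised to Agilent 60-base probes. Levels are log2 signal relative to the 75th percentile of the array, and differences are log2 differences, so that -0.36 is 0.78 times the level. A level depends on the probe, so levels of different probes are not compared. The arrays lay on 6 slides with pigs of all groups on each, and between 41.7% and 79.0% of probes on an array gave a signal well above background. The muscle markers ACTA1, CKM, DES, MYOD1, MYOG, RYR1, TNNT3 and MYLPF reached this on every one of the 23 arrays. Of the 131 subunit probes 128 had such a signal on all 23 arrays, none was saturated, and 130 were tested; the 1 left out, a COX7C probe, was above background on 2 arrays. Each gene is given by its brightest tested probe unless another is named. In bulk muscle, fewer fibres of a type and less RNA per fibre cannot be told apart.

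No subunit passed the test in any comparison. In low-RFI against high-RFI pigs, 0 of 130 probes had a limma adjusted p under 0.05, beside 0.122% of the 27785 probes tested; 16 had an unadjusted p under 0.05, or 12.3%, beside 11.1% of all probes. Of these 16 probes 15 were lower in low-RFI pigs, or 11.5% of the subunit probes beside 3.91% of all probes. A gene had up to 14 probes reading it in the same pigs, so probe counts are not counts of genes. By the brightest probe, 4 of 28 genes had an unadjusted p under 0.05, 3 of them lower in low-RFI pigs. In low-RFI against restricted pigs the limma count was again 0 (0.162% of all probes), with 8 at an unadjusted p under 0.05 (10.2% of all probes), all lower, or 6.15% beside 4.61% of all probes in that direction. In restricted against freely fed high-RFI pigs it was 0 (0.0036%), with 1 at an unadjusted p under 0.05 (9.76% of all probes). The F test over the 3 groups also called 0 (0.137%), with 7 at an unadjusted p under 0.05 (12.5%). These unadjusted counts rested on single pigs and on the scaling. Against high-RFI pigs the 16 became 7 to 10 without any of low-RFI replicates 1, 2, 4 and 5 (5.385% to 7.692%). It became 6 or 7 without any of high-RFI replicates 2, 3 and 4 (4.615% or 5.385%). It became 33 and 32 without high-RFI replicates 1 and 5 (25.38% and 24.62%). Beside these, the share of all probes ran from 8.84% to 11.7% without single pigs. The count was 6 after median centring (4.615% beside 9.361% of all probes) and 60 after quantile normalization (46.2% beside 10.98%). Against restricted pigs the 8 became 3 to 5 without any of low-RFI replicates 1, 4 and 5 or restricted replicates 2, 4 and 6. It was 16 and 18 without restricted replicates 5 and 7, or 12.3% and 13.85% beside 11.2% and 11.4% of all probes. Without single pigs the share of all probes here ran from 7.72% to 11.4%. The count was 19 after quantile normalization (14.6% beside 10.3%) and 0 under normexp background correction (3.74% of all probes). Between feeding levels the 1 became 6 without restricted replicate 4 (4.62% beside 11.2% of all probes) and 4 without high-RFI replicate 1 (3.08% beside 9.62%). It became 2 without any of high-RFI replicates 6 and 8 or restricted replicates 3 and 7. There the share of all probes ran from 8.02% to 11.4% without single pigs. Under normexp the count was 31 (23.85% beside 18.7% of all probes), and after quantile normalization 5 (3.85% beside 8.645%).

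The differences nonetheless lay mostly on the same side. The difference was below 0 in low-RFI against high-RFI pigs for 22 of 28 genes and 119 of 130 probes, beside 44.7% of all probes, with a median over the genes of -0.13 beside 0.02 over all probes. Among the 1008 probes of other genes at or above the lower quartile of the subunits' levels, 19.0% were below 0 and the median was 0.14. Against restricted pigs 25 of 28 genes were below 0, with a median of -0.09 and a background of 45.3%, but normexp background correction turned all but 1 of the 28 above 0. Between the feeding levels 14 of 28 genes were below 0, with a median of -0.004 and a background of 46.9%, and median centring left 5 below 0 and normexp 27. Among the same 1008 probes of other genes, 24.9% were below 0 against restricted pigs (median 0.09). Between the feeding levels 22.9% of these were below 0 (median 0.05). The genes share arrays and vary together, so these counts are not counts of independent observations.

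**Figure D1:**
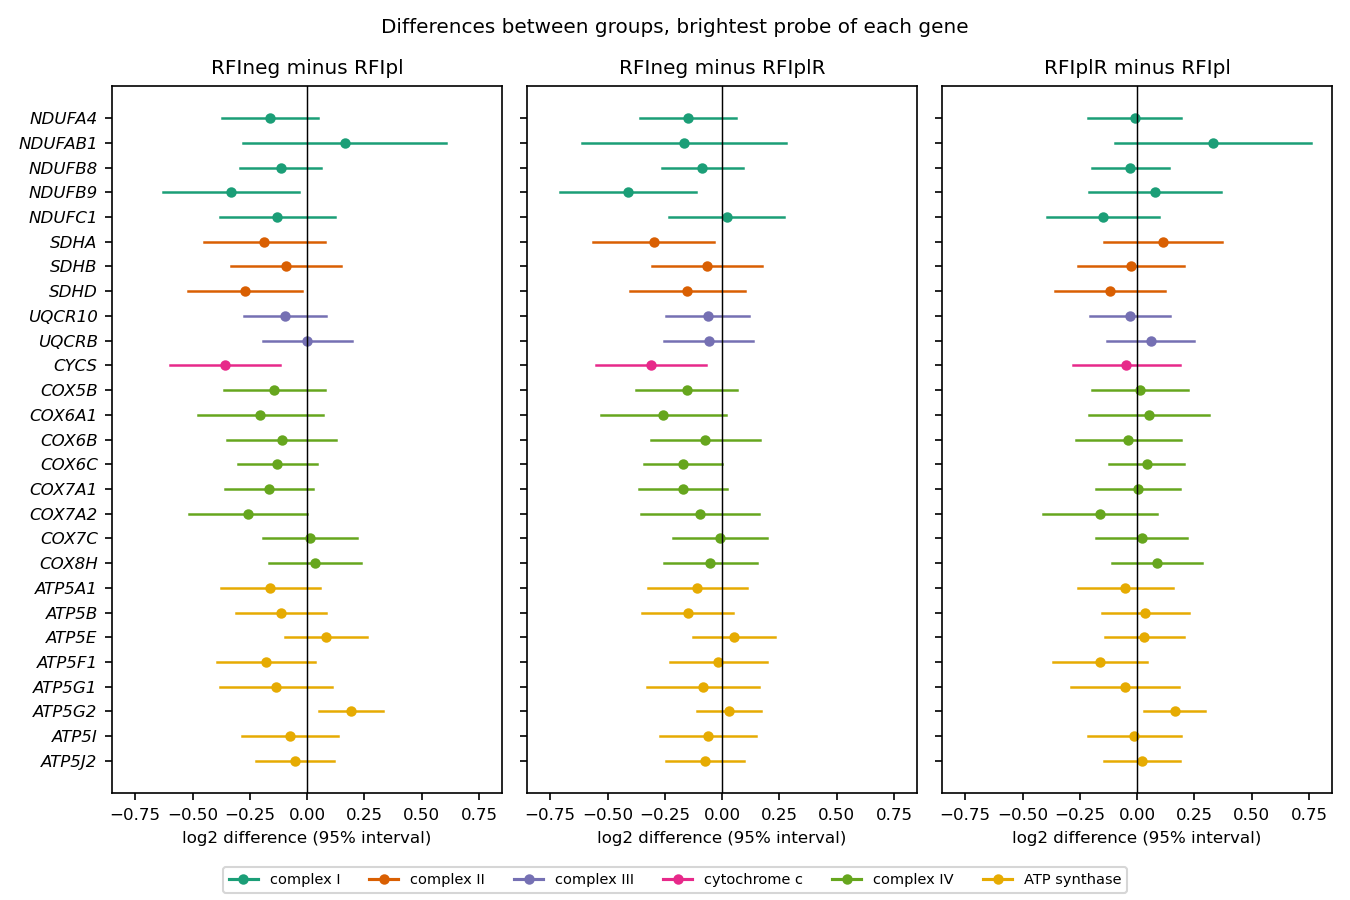
Log2 differences of 27 of the 28 genes (rows, coloured by complex) in the 3 comparisons, with points for the estimate and lines for its 95% interval from the limma fit of 3 groups. CYCS, NDUFB9 and SDHD lie lowest in the left panel with intervals below 0, ATP5G2 is the only gene whose interval lies above 0 there, and the right panel scatters around 0; under normexp background correction the middle panel would lie above 0.

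In each pig, the 28 genes were averaged as deviations from the mean of the 23 pigs. In low-RFI pigs this mean had its lowest value at -0.15, its median at -0.11 and its highest at 0.03. In high-RFI pigs it ran from -0.16 through a median of -0.04 to 0.25. In restricted pigs it ran from -0.16 through a median of -0.02 to 0.25. The 3 groups shared their lower end, and what set the high line apart was its upper end: high-RFI replicates 2, 3 and 4 stood at 0.18, 0.25 and 0.25 and restricted replicates 2, 4 and 6 at 0.20, 0.22 and 0.25, while the other 5 pigs of each of these groups lay at -0.007 or below, within the range of the low-RFI pigs or beneath it. The SD among pigs was 0.07 in the low-RFI group (n = 7), 0.17 in the high-RFI group (n = 8) and 0.16 in the restricted group (n = 8). The difference in spread was not tested. These 6 pigs lay on slides 1, 2, 3, 4 and 6 and on both scan days.

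**Figure D2:**
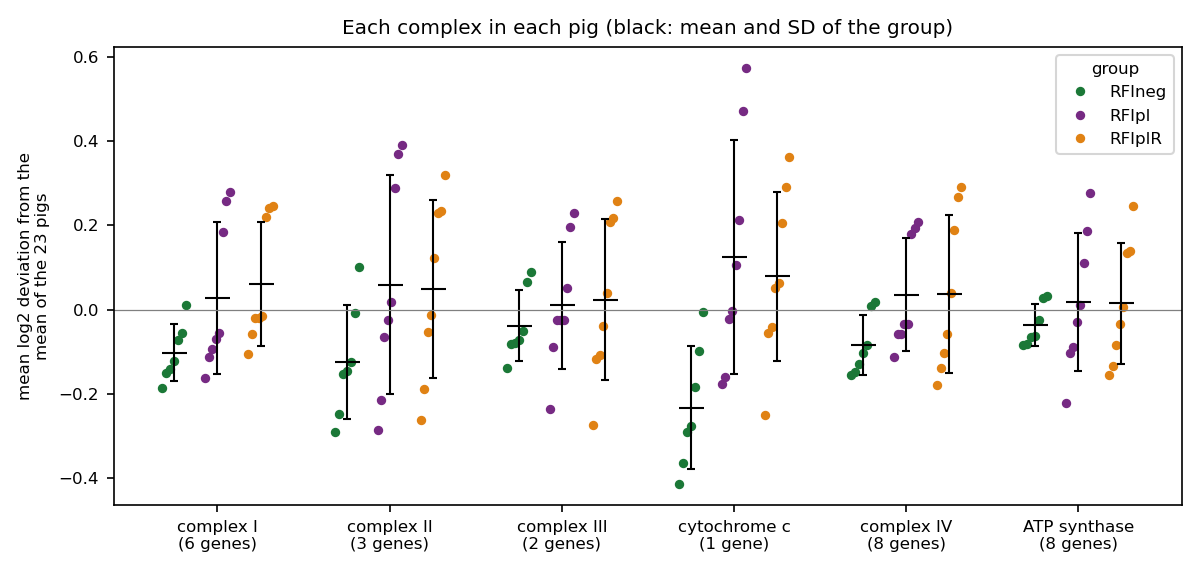
Mean log2 deviation of the genes of each complex from their mean over the 23 pigs (vertical axis), for each pig (points) in each group, with the group mean and SD in black. The groups overlap in every complex; cytochrome c has the lowest low-RFI values, down to -0.41, and ATP synthase the closest group means.

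Each complex is given first by the brightest probe of each gene. Cytochrome c, a single gene, stood at -0.36 and -0.31 against high-RFI and restricted pigs. In low-RFI against high-RFI pigs the median over genes was -0.15 for complex I (5 of 6 below 0), -0.19 for complex II (3 of 3), -0.05 for complex III (1 of 2), -0.14 for complex IV (6 of 8) and -0.09 for ATP synthase (6 of 8). In low-RFI against restricted pigs the medians were -0.16, -0.15, -0.06, -0.13 and -0.07 in the same order, all of which normexp turned above 0. Over all probes the medians in this comparison were -0.18 for complex I and -0.18 for cytochrome c, beside -0.16 and -0.29 against high-RFI pigs. Within slides, the mean of all 28 genes was lower in low-RFI than in high-RFI pigs on 4 of 6 slides, from -0.26 to 0.13, and by 0.14 and 0.09 on scan days 1 and 2. Cytochrome c was lower on 6 of 6 slides, from -0.40 to -0.13. Each slide held only 1 or 2 pigs of a group. Counts of slides, here and below, therefore rest on the same pigs as the differences and are no separate evidence.

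Complex I takes electrons from NADH. NDUFA4, an accessory subunit that was later assigned to complex IV, ran from 7.77 through a median of 8.01 to 8.19 in low-RFI pigs, from 7.91 through 8.11 to 8.51 in high-RFI pigs and from 7.91 through 8.11 to 8.38 in restricted pigs. The groups overlapped, and the differences of low-RFI from the other groups were -0.16 (SE 0.10, limma adjusted p 0.592) and -0.15 (limma adjusted p 0.653), with its 6 probes between -0.22 and -0.15 in the first. The accessory subunits NDUFB8 and NDUFC1 differed by -0.12 and -0.13 between low-RFI and high-RFI pigs. NDUFAB1, the mitochondrial acyl carrier protein, went the other way at 0.16 (95% interval -0.28 to 0.61); its single probe had the widest SD within groups of the 28, 0.43. Within complex I the narrowest SD was that of NDUFB8, 0.14.

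NDUFB9, an accessory subunit of the membrane arm, had 3 probes that gave different sizes of difference. The sequences below show why they can be set side by side: A_72_P680773 and A_72_P473353 overlap by 51 bases and differ there at 1 base, C60T, counted from 1 at the 5′ end of A_72_P680773 and shown in capitals. The first line holds bases 31 to 60 of its probe and the second bases 22 to 51 of its own. A_72_P574759, shown whole, overlaps neither by 15 or more bases with at most 3 mismatches, and its place in the transcript was not mapped.
A_72_P680773: aggacatacgcttgccctaataaagtaacC
A_72_P473353: aggacatacgcttgccctaataaagtaacT
A_72_P574759: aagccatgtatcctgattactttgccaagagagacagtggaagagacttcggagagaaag

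On A_72_P473353 the low-RFI pigs stood at 5.48, 5.50, 5.58, 5.67, 6.43, 6.44 and 7.20. High-RFI pigs ran from 6.25 through a median of 6.97 to 7.22, and restricted pigs from 5.54 through 7.01 to 7.40. Thus 4 low-RFI pigs and 1 restricted pig, replicate 1, lay between 5.48 and 5.67, with no other pig below 6.25, and the groups overlapped. The difference was -0.85 against high-RFI (SE 0.26, limma adjusted p 0.219) and -0.86 against restricted pigs (SE 0.26, limma adjusted p 0.227). Without restricted replicate 1 the second difference was -1.06 and passed the test (limma adjusted p 0.0386), the only call of any subunit in the settings tried. In that setting 68 of the 27785 probes were called, beside 45 with all pigs. That pig was the lowest restricted pig on this probe, so leaving it out could only widen the difference. Under normexp the second difference was -0.26 (limma adjusted p 0.706). On the overlapping probe A_72_P680773 the low-RFI pigs ran from 6.29 through a median of 6.58 to 7.31, high-RFI pigs from 6.68 through 7.08 to 7.20, and restricted pigs from 6.51 through 7.03 to 7.48. There the differences were -0.33 (SE 0.14, limma adjusted p 0.382) and -0.41 (SE 0.14, limma adjusted p 0.320). On A_72_P574759 they were -0.04 (limma adjusted p 0.939) and -0.25 (limma adjusted p 0.519), with low-RFI medians of 6.53 beside 6.51 and 6.75. All 3 probes were below 0 in both comparisons, with a range of -0.85 to -0.04 in the first. The gap between the overlapping probes in the same pig was 0.82 at the median of low-RFI pigs, 0.09 in high-RFI and 0.11 in restricted pigs, and reached 0.94, 0.43 and 0.98.

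**Figure D3:**
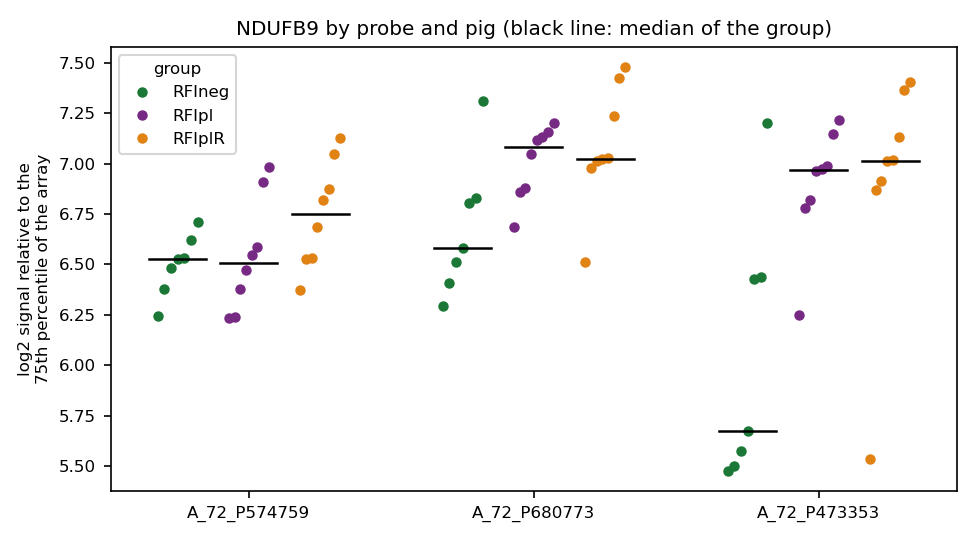
Log2 level of NDUFB9 relative to the 75th percentile of the array (vertical axis) on its 3 probes, for each pig (points) by group, with group medians as black lines. On A_72_P473353, 4 low-RFI pigs and 1 restricted pig lie between 5.48 and 5.67, whereas on A_72_P574759 the low-RFI and high-RFI medians are 6.53 and 6.51.

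Complex II, succinate dehydrogenase, links the tricarboxylic acid cycle to the chain. SDHA, the flavoprotein that oxidises succinate, ran from 4.73 through a median of 4.96 to 5.32 in low-RFI, from 4.75 through 5.16 to 5.70 in high-RFI and from 5.06 through 5.30 to 5.52 in restricted pigs. Most low-RFI pigs lay under the restricted pigs, and the ranges overlapped. Low-RFI differed by -0.30 from restricted pigs (SE 0.13, limma adjusted p 0.428), below 0 on 6 of 6 slides, and by -0.19 from high-RFI pigs (SE 0.13, limma adjusted p 0.638). SDHB, the iron-sulphur subunit, differed by -0.09 and -0.07 from high-RFI and restricted pigs, with all 8 probes below 0 in both comparisons. SDHD, a membrane anchor, ran from 5.90 through a median of 5.96 to 6.34 in low-RFI pigs, from 5.97 through 6.20 to 6.62 in high-RFI pigs and from 5.73 through 6.18 to 6.49 in restricted pigs. Its difference from high-RFI pigs was -0.27 (SE 0.12, limma adjusted p 0.406), and from restricted pigs -0.15 (limma adjusted p 0.719). Its 7 probes gave -0.27 to -0.05 in the first comparison; the smallest was A_72_P440211, whose SD within groups was 0.44 beside 0.23 for the brightest SDHD probe. The SD within groups of the brightest probe was widest for SDHA, 0.24, and narrowest for SDHB, 0.22.

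Complex III was represented by 2 small subunits. UQCR10 ran from 7.50 through a median of 7.55 to 7.81 in low-RFI pigs, from 7.49 through 7.66 to 7.92 in high-RFI pigs and from 7.43 through 7.61 to 7.94 in restricted pigs. UQCRB ran from 7.04 through 7.16 to 7.34, from 6.89 through 7.17 to 7.39 and from 6.87 through 7.24 to 7.51 in the same order. The groups overlapped almost wholly. UQCR10 differed by -0.10 (95% interval -0.28 to 0.08) between low-RFI and high-RFI pigs, and UQCRB by 0.0001 (95% interval -0.19 to 0.19), with 6 of its 7 probes slightly below 0.

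CYCS encodes cytochrome c, which carries electrons from complex III to complex IV. It ran from 5.96 through a median of 6.10 to 6.37 in low-RFI pigs, from 6.20 through 6.43 to 6.95 in high-RFI pigs and from 6.13 through 6.43 to 6.74 in restricted pigs. The low-RFI pigs lay lowest as a group and met the others only between 6.13 and 6.37. The difference was -0.36 from high-RFI pigs (SE 0.12, 95% interval -0.60 to -0.12, limma adjusted p 0.235) and -0.31 from restricted pigs (SE 0.12, limma adjusted p 0.349), neither past the threshold. It was below 0 on 6 of 6 slides in both comparisons, and -0.43 and -0.28 against high-RFI pigs on scan days 1 and 2. Restricted and freely fed high-RFI pigs differed by -0.05 (95% interval -0.28 to 0.19), the smallest difference of the 12 CYCS probes. All 12 were below 0 there, from -0.21 to -0.05 with a median of -0.13. Against restricted pigs the -0.31 of low-RFI pigs was the lowest of the 12, whose median was -0.18. Under normexp the difference from restricted pigs was 0.29.

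Of 12 CYCS probes 11 were below 0 in low-RFI against high-RFI pigs and against restricted pigs, and the same probe, A_72_P592869, was the exception in both. It overlaps the brightest CYCS probe, A_72_P573694, by 52 bases and differs there by A17G, C19G and T29C, counted from the 5′ end of A_72_P573694. The differing bases are in capitals below, in bases 8 to 37 of the brightest probe and 1 to 29 of the other.
A_72_P573694: agctgtaccAtCagcacagatTtgtaaatt
A_72_P592869: gctgtaccGtGagcacagatCtgtaaatt

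On A_72_P592869 levels ran from 5.04 through a median of 6.07 to 6.43 in low-RFI pigs, from 3.66 through 5.43 to 7.35 in high-RFI pigs and from 3.98 through 5.19 to 6.61 in restricted pigs. Pigs of the high line spread over more than 3 log2 units on this probe, and low-RFI pigs lay in the middle of that range. Low-RFI pigs differed by 0.54 from high-RFI (SE 0.50, limma adjusted p 0.763) and by 0.63 from restricted pigs (SE 0.50, limma adjusted p 0.726). The SD within groups was 1.04, beside 0.22 on the overlapping probe. Of 38 pairs of overlapping probes of the same gene, with at least 15 shared bases and at most 3 mismatches, this CYCS pair had the widest SD of the gap within groups, 1.07, the NDUFB9 pair the next at 0.28, and the median pair 0.07.

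**Figure D4:**
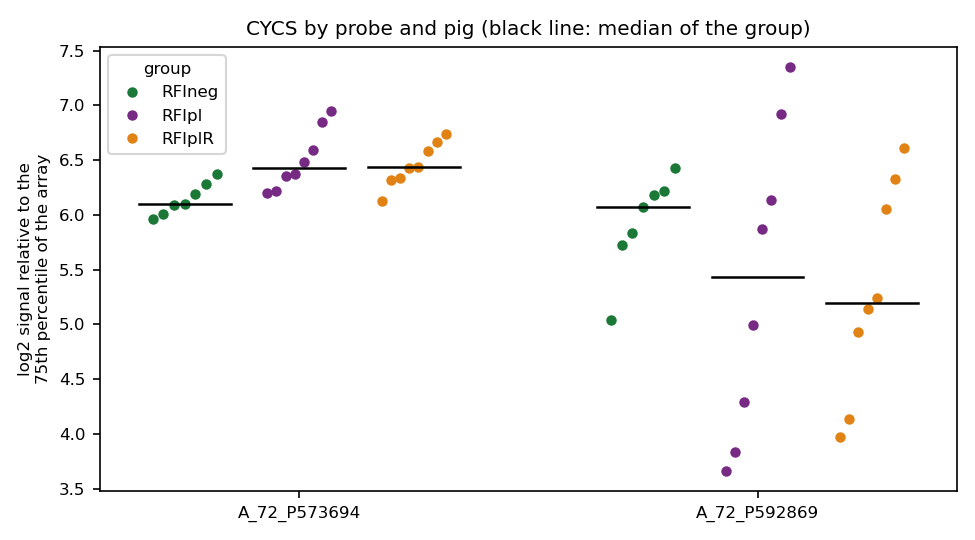
Log2 level of CYCS relative to the 75th percentile of the array (vertical axis) on 2 overlapping probes, for each pig (points) by group, with group medians as black lines. The low-RFI pigs lie lowest on A_72_P573694, with a median of 6.10 beside 6.43 in both other groups, and between 5.04 and 6.43 on A_72_P592869, where high-RFI pigs run from 3.66 to 7.35.

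Complex IV, cytochrome c oxidase, was represented by 8 nuclear subunits. COX7A1 and COX7A2 are the muscle and the ubiquitous form of the same subunit. COX7A1 ran from 7.55 through a median of 7.68 to 8.05 in low-RFI, from 7.71 through 7.88 to 8.07 in high-RFI and from 7.68 through 7.88 to 8.16 in restricted pigs. COX7A2 ran from 4.94 through 4.99 to 5.16, from 5.0 through 5.24 to 5.64 and from 4.71 through 5.11 to 5.75 in the same order. Both forms had their lowest median in low-RFI pigs, in overlapping ranges. COX7A2 differed by -0.26 from high-RFI pigs (SE 0.12, limma adjusted p 0.452), below 0 on 6 of 6 slides, and COX7A1 by -0.17 (SE 0.09, limma adjusted p 0.525). From restricted pigs they differed by -0.10 and -0.17. The 5 COX7A2 probes lay between -0.31 and -0.26, and both COX7A1 probes between -0.17 and -0.14, against high-RFI pigs.

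COX6C ran from 7.07 through a median of 7.12 to 7.35 in low-RFI pigs, from 7.22 through 7.27 to 7.47 in high-RFI pigs and from 7.12 through 7.26 to 7.65 in restricted pigs. Its difference was -0.13 from high-RFI (limma adjusted p 0.598) and -0.17 from restricted pigs (SE 0.08, limma adjusted p 0.491), and its SD within groups, 0.14, was the narrowest of complex IV. COX6A1, the ubiquitous form of its subunit, had the widest, 0.25, and differed by -0.20 and -0.26 (limma adjusted p 0.605 and 0.520). COX5B differed by -0.14 and -0.16, and COX6B by -0.11 and -0.07. COX7C and COX8H, the muscle form of subunit VIII, stood at 0.01 and 0.04 against high-RFI pigs and at -0.01 and -0.05 against restricted pigs, with 95% intervals of -0.19 to 0.22 and -0.17 to 0.24 in the first comparison. These were the only complex IV genes not below 0 there.

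ATP synthase had subunits on both sides of 0. ATP5A1 and ATP5B form the catalytic head; they differed by -0.16 (SE 0.10, limma adjusted p 0.611) and -0.11 (SE 0.10, limma adjusted p 0.722) between low-RFI and high-RFI pigs, with all 14 and all 9 of their probes below 0. ATP5F1, subunit b of the stalk, differed by -0.18 (SE 0.10, limma adjusted p 0.551) from high-RFI and by -0.02 from restricted pigs, and its 12 probes lay between -0.22 and -0.07 in the first comparison. Restricted pigs also differed from high-RFI pigs by -0.16 in ATP5F1 (limma adjusted p 0.634). The small subunits ATP5I and ATP5J2 stood at -0.08 and -0.05, and ATP5E, subunit epsilon, at 0.08 (95% interval -0.10 to 0.26).

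ATP5G1 and ATP5G2 encode the same mature protein, subunit c of the proton-carrying ring, and lay on opposite sides of 0. ATP5G1 ran from 7.29 through a median of 7.40 to 7.49 in low-RFI, from 7.17 through 7.41 to 8.01 in high-RFI and from 7.22 through 7.48 to 7.77 in restricted pigs, with differences from high-RFI pigs of -0.14 (low-RFI) and -0.05 (restricted). ATP5G2 ran from 7.74 through 7.82 to 7.85, from 7.46 through 7.65 to 7.73 and from 7.56 through 7.83 to 7.88. Every low-RFI pig thus lay above every high-RFI pig, beside 0.252% of all probes, while restricted pigs overlapped both groups. No other subunit probe separated 2 groups: 0 were wholly lower in low-RFI than in high-RFI pigs (0.101% of all probes), 0 wholly higher or lower in restricted than in high-RFI pigs (0.0216% and 0.0576%), and 0 wholly higher or lower in low-RFI than in restricted pigs (0.14% and 0.0864%). ATP5G2 differed by 0.19 between low-RFI and high-RFI pigs (SE 0.07, 95% interval 0.05 to 0.33, limma adjusted p 0.278), by 0.16 between restricted and high-RFI pigs (SE 0.07, limma adjusted p 0.385), and by 0.03 between low-RFI and restricted pigs (limma adjusted p 0.934). The first difference was 0.08 under quantile normalization and -0.03 under normexp. Its SD within groups, 0.10, was the narrowest of the ATP synthase genes and that of ATP5G1, 0.22, the widest. ATP5G2 is the name that the array annotation gives to its single probe, whose first 30 bases are shown because the separation of groups rests on it.
A_72_P776173: gaacgtggttggctcagggtttgacagagg

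Probes of the same gene mostly gave like differences. In low-RFI against high-RFI pigs all tested probes had the same sign in 26 genes, of which 4 had 1 probe; the exceptions were CYCS and UQCRB. Against restricted pigs probes differed in sign for CYCS, COX7C and ATP5E. The overlap and the single-base differences of probes were read from the files, whereas the position of the probes in the genome was not used here.

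The 28 genes also varied together from pig to pig within groups. Over the 23 pigs, after subtracting the group means, the median correlation over 378 pairs of these genes was 0.60, and 354 pairs were above 0. It was 0.54 for the 75 pairs within a complex and 0.61 for the 303 pairs between complexes. Over the pairs of 3158 other named genes the median was 0.01, and over the 173 of them at least as bright as the lower quartile of the subunits, a level of 6.37, it was 0.32. All pairs share the arrays and their scaling. COX5B, NDUFA4 and COX6B had the highest median correlation with the other subunits, 0.79, 0.76 and 0.76; ATP5G2, NDUFAB1 and NDUFB9 had the lowest, 0.03, 0.11 and 0.23.

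**Figure D5:**
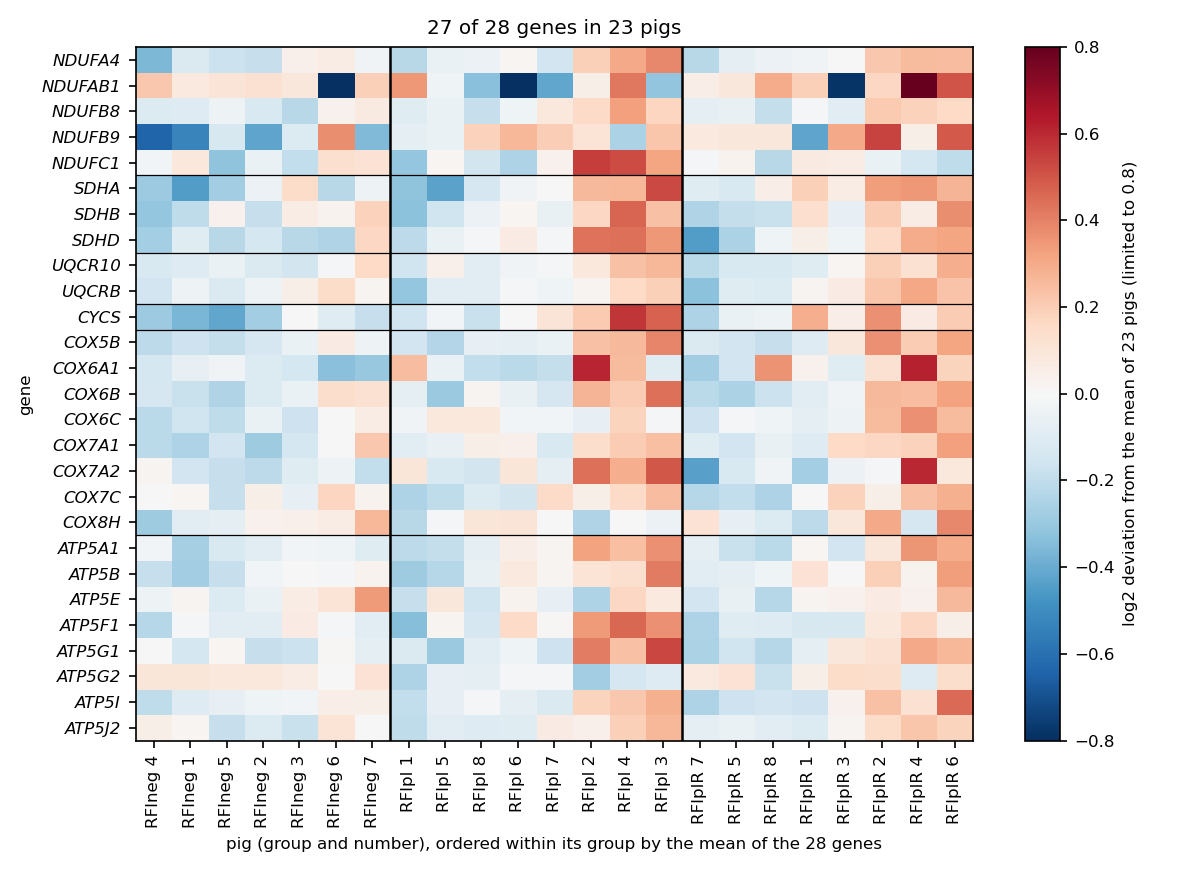
Log2 deviation from the mean of the 23 pigs (colour, limited to 0.8) of 27 of the 28 genes (rows, in the order of the complexes) in each pig (columns, ordered within its group by the mean of the 28). The 3 rightmost pigs of the high-RFI and of the restricted group are high across most rows, and ATP5G2, NDUFAB1 and NDUFB9 follow the other rows least.

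Other genes of the pathway gave no call either. Of 48 assembly factors 3 were measured, COX17, PET100 and NUBPL, with low-RFI minus high-RFI differences of 0.07, 0.08 and 0.02; 0 passed in either direction in any comparison with limma, and 0 had an unadjusted p under 0.05. Of 24 carriers and partners of the chain 10 were measured and 0 passed with limma. At an unadjusted p under 0.05 were 1 against high-RFI, 0 between feeding levels and 3 against restricted pigs, all lower in low-RFI pigs. Among all probes the shares at that threshold were 11.1%, 9.76% and 10.2% in the same order. The smallest p were those of VDAC2, an outer-membrane channel, at -0.27 against high-RFI and -0.28 against restricted pigs (limma adjusted p 0.340 and 0.376), VDAC3 at -0.23 against restricted pigs (limma adjusted p 0.413) and SLC25A3, the phosphate carrier, at -0.21 (limma adjusted p 0.477). Of 10 regulators 3 were measured, with 0 calls with limma. At an unadjusted p under 0.05 were 0 against high-RFI pigs, 1 between feeding levels and 2 against restricted pigs, beside the same shares of all probes. The 1 was TFAM, higher in restricted pigs, and the 2 were PPARGC1A and TFAM, lower in low-RFI pigs. PPARGC1A, a coactivator of mitochondrial genes, stood at -0.66 in low-RFI against high-RFI pigs (SE 0.38, limma adjusted p 0.551), at 0.66 in restricted against high-RFI pigs (SE 0.37, limma adjusted p 0.586) and at -1.32 in low-RFI against restricted pigs (SE 0.38, limma adjusted p 0.200). TFAM, which packages mitochondrial DNA, stood at 0.09, 0.31 and -0.22 in the same order, with a limma adjusted p of 0.202 for the second. TFB1M, a mitochondrial rRNA methyltransferase, stood at -0.01, 0.11 and -0.13. The subunits named through RefSeq gave -0.11 for NDUFB6, -0.09 for ATP5O and 0.03 for NDUFV2 in low-RFI against high-RFI pigs.

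Markers of fibre types and of other cells of the tissue were read in the same arrays. In low-RFI against high-RFI pigs 9 of 10 fast-fibre markers were above 0 (median 0.16) and 5 of 8 slow-fibre markers below 0 (median -0.05). Of all probes 44.7% were below 0 in this comparison (median 0.02). Of the 1008 probes of other genes at or above the lower quartile of the subunits' levels 19.0% were (median 0.14). The summed slow-fibre level ran from 50.3 to 54.7 in low-RFI, 50.3 to 56.2 in high-RFI and 49.9 to 57.0 in restricted pigs, and the fast-fibre level from 87.4 to 90.3, 85.6 to 89.4 and 84.7 to 90.0. Of 9 measured adipocyte markers 8 were below 0 (median -0.53), with summed levels of 2.4 to 13.8, -0.2 to 21.2 and 2.1 to 15.6. No fibre or adipocyte marker passed the limma test. In this comparison 1 fast-fibre, 1 general muscle fibre and 2 adipocyte markers had an unadjusted p under 0.05, beside 11.1% of all probes. So did 2 fibroblast markers, 1 endothelial marker and 1 nerve and Schwann cell marker. General muscle fibre markers were below 0 in 0 of 8 cases (median 0.14), with RYR1, the calcium release channel, at 0.49 (limma adjusted p 0.247). Fibroblast markers were below 0 in 3 of 4 cases, leukocyte markers in 4 of 5, endothelial markers in 3 of 5 and nerve and Schwann cell markers in 2 of 3. The extracellular matrix genes FN1 and FBN1 had the smallest p of all these lists in low-RFI against high-RFI pigs, at -0.69 and -0.60 (limma adjusted p 0.118 and 0.143), and VWF, an endothelial marker, stood at -0.38 (limma adjusted p 0.298). Across the 3 comparisons 1 marker passed, UCHL1, a ubiquitin hydrolase abundant in neurons, at -1.07 in low-RFI against restricted pigs (limma adjusted p 0.0389) and -0.62 against high-RFI pigs (limma adjusted p 0.269). MBP, a myelin gene of the same list, stood at 0.51 against restricted pigs (limma adjusted p 0.464), and the summed level of the 3 nerve and Schwann cell markers ran from 0.5 to 3.0 in low-RFI, 0.8 to 3.6 in high-RFI and 2.1 to 3.7 in restricted pigs. The part of these cells in the subunits' differences was not tested.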

How the data were processed

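Spot intensity values deposited by the authors were background-subtracted and detrended within arrays by Feature Extraction 10.7.3.1, per the file headers. R 2.10.0 appears in the submitters' processing notes. The authors' log2 table holds 26410 probes and equals these signals less each array's median over those probes; it served as an alternative only. Here, processed signals of 43803 non-control spots were log2-transformed and scaled to each array's 75th percentile, outlier spots were set to missing and spots of a probe averaged. Probes with signal well above background in 6 or more pigs of any group, 27785 in all, were fitted over 3 groups in limma 3.58.1 (R 4.3.3), with Benjamini-Hochberg adjustment over all of them and a threshold of adjusted p 0.05. The scripts were tested on simulated data. Members and gene lists were chosen with earlier results of these data known. Named genes are the 28, each by its brightest tested probe, except 1 that is counted but not reported here singly; NDUFB9, CYCS and SDHD probes that disagree were added under the rule for probes of 1 gene, and values of VDAC, PPARGC1A and other list genes by smallest p. The number of arrays limits precision. Pigs of the same replicate number were not treated as pairs in the main fit.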

Additional observations from a re-analysis of the deposited data

Results flagged for a closer look

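Of 111 groups of values examined for a pig far from the rest of its group, 5 were marked; chance marks about 1 in 20. In NDUFAB1, low-RFI replicate 6 stood at -2.41, with the next pig at -1.53. In SDHD, low-RFI replicate 7 stood at 6.34, above the next pig at 6.08. In ATP5A1, low-RFI replicate 1 stood at 7.43, under the next pig at 7.57. On the NDUFB9 probe A_72_P473353, high-RFI replicate 4 stood at 6.25, with the next pig at 6.78, and restricted replicate 1 at 5.54, with the next pig at 6.87.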

How the results depend on the processing

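The count of subunit probes past the threshold was 0 in every comparison and setting except 1: leaving out each pig in turn gave 0 to 1 for low-RFI against restricted pigs, the 1 being NDUFB9 without restricted replicate 1. In that setting 68 of all 27785 probes passed. The median over genes for low-RFI against high-RFI pigs stayed below 0 in all settings, from -0.16 to -0.09 without single pigs; against restricted pigs it ran from -0.12 to -0.06 and between feeding levels from -0.04 to 0.03. Normexp moved the medians to -0.36, -0.83 (between feeding levels) and 0.51 (against restricted pigs); its fitted background SD was over 100 on 5 arrays, 3 of them restricted, and it moved the median of all probes between feeding levels to 0.21. Quantile normalization gave 60 of 130 probes at an unadjusted p under 0.05 in low-RFI against high-RFI pigs, beside 16, or 46.2% beside 10.98% of all probes in that setting, with 26 of 28 genes below 0. Without single pigs the 16 ran from 6 to 33, and the count against restricted pigs from 3 to 18. The shares of all probes ran from 8.84% to 11.7% and from 7.72% to 11.4% there. Between feeding levels normexp gave 31 of 130 probes, or 23.85% beside 18.7% of all probes. With the replicate number as a block the medians were -0.15, -0.004 and -0.12, and no call of a subunit changed. Against high-RFI pigs 24 probes then had an unadjusted p under 0.05, or 18.5% beside 9.80% of all probes. With slide as a fixed block that count was 10, or 7.69% beside 12.5% of all probes. As a random block, slide gave 15, or 11.5% beside 12.6%. Against restricted pigs the fixed and random slide blocks gave 12 and 11, or 9.23% and 8.46% beside 11.1% and 11.7%. Pigs of 1 number showed little shared deviation (median correlation 0.05 over 22 pairs, -0.30 to 0.33), which cannot settle whether the numbers pair pigs.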
